A study of Homo sapiens with 16 samples.

Results

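The response of 2 gastric cancer cell lines to a small interfering RNA against MYB (siMYB) was set against their response to one against TCF7 (siTCF7). Both lines, SNU719 and YCC10, are established human lines that carry Epstein-Barr virus, and all libraries are labelled wild type. The comparison takes 12 of the 16 RNA-seq libraries of the series: every library of the MYB knockdown set and of the TCF7 knockdown set. In the MYB set each line has 2 siCtrl and 2 siMYB libraries. In the TCF7 set each line has 1 siCtrl and 1 siTCF7 library. The 2 sets have separate control libraries, so a gene's siMYB change and its siTCF7 change share no measurement. Of 28167 gene symbols, 12172 had a mean of at least 1 FPKM (fragments scaled to transcript length and to the library's mapped total) over the 12 libraries and were tested. The remaining 4 libraries are a CRISPR interference set (sgCtrl and sgMYB-E3, 1 library each per line) and serve below as a readout that did not choose any gene.

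MYB is a DNA-binding activator best known for keeping blood and colon progenitors dividing, and it is amplified or rearranged in several tumours. Its relative MYBL2 joins the MuvB complex, which switches on the genes of mitosis. TCF7, also called TCF1, binds DNA and recruits beta-catenin when WNT signaling is on, and represses the same genes through TLE corepressors when it is off. It is best known in T cells and is also present in gut epithelium.

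The labels give neither the siRNA sequences nor the dose or harvest time, and nothing says that libraries of 1 group came from separate cultures. The p-values therefore cover no more than the variation among these libraries, which may be technical. FPKM holds no fragment counts, so the depth is unknown. Relative depth estimated from the lowest listed values ran from 0.595 to 1.14 over the 12 libraries, and 11176 to 11834 genes reached 1 FPKM. The 4 MYB-set libraries numbered 1 stand apart. They list 69.6 to 75 percent of 260 short RNA genes at 0, against 44.6 to 58.1 percent in the other 8 libraries. Without short RNA genes the replicates of a group correlated at 0.9935 to 0.9942 on the log scale, and with them at 0.914 to 0.925. All 10 gastric epithelial markers checked reached 1 FPKM in some library of either line. Of 24 T-cell and lymphoid genes 4 did, and of 17 fibroblast and endothelial genes 1 did. The marker CDH17 stayed under 1 FPKM in YCC10. There it read 0.061 and 0.044 FPKM in the MYB-set controls and 0.479 with siTCF7, its highest value. The summed T-cell and lymphoid list ran from 45.4 to 98.3 FPKM with siCtrl, 9.29 to 51.7 with siMYB and 49.1 to 73.4 with siTCF7; its members LCK and LPXN fell with siMYB, and the part of that list in other results was not tested.

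MYB itself fell with either siRNA, while TCF7 fell with siTCF7 alone. MYB stood at 45.7 and 44.2 FPKM in the SNU719 controls and at 9.66 and 8.45 with siMYB. In YCC10 it went from 29.4 and 27.3 to 1.95 and 1.43, so 20.2 percent of the control level was left in SNU719 and 5.95 percent in YCC10. In the TCF7 set MYB read 45.1 in the SNU719 control and 25.3 with siTCF7, and 25.6 and 5.4 in YCC10. No library with either siRNA reached a control library of its line. The MYB change on log2(FPKM + 1) was -2.82 with siMYB (limma, adjusted p = 0.0002, SE 0.183). With siTCF7 it was -1.43 (adjusted p = 0.0201, SE 0.258). The difference of -1.39 passed (adjusted p = 0.0421) but was lost with the block (0.0821), without the filter on low values (0.0794), after median-of-ratios (0.0517) or quantile scaling (0.0611), and without any 1 of the 8 MYB-set libraries (0.076 to 0.0941). The siTCF7 call of MYB was lost when either TCF7-set library of YCC10 was left out (0.0571 and 0.0574), leaving the SNU719 pair alone for that effect.

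TCF7 read 20.9 and 24.2 FPKM in the SNU719 controls of the MYB set and 18.8 and 18.6 with siMYB. In YCC10 it read 15.9 and 16.1 in the controls and 14.5 and 16.2 with siMYB, where the groups overlapped. With siTCF7 it went from 26.9 to 7.99 in SNU719 and from 22.6 to 4.14 in YCC10, which left 29.7 and 18.3 percent. The siTCF7 change was -1.92 (SE 0.136, adjusted p = 0.00216). The siMYB change was -0.16 (SE 0.0964) and did not pass (adjusted p = 0.246), and the difference did (1.76, adjusted p = 0.00342).

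**Figure D1:**
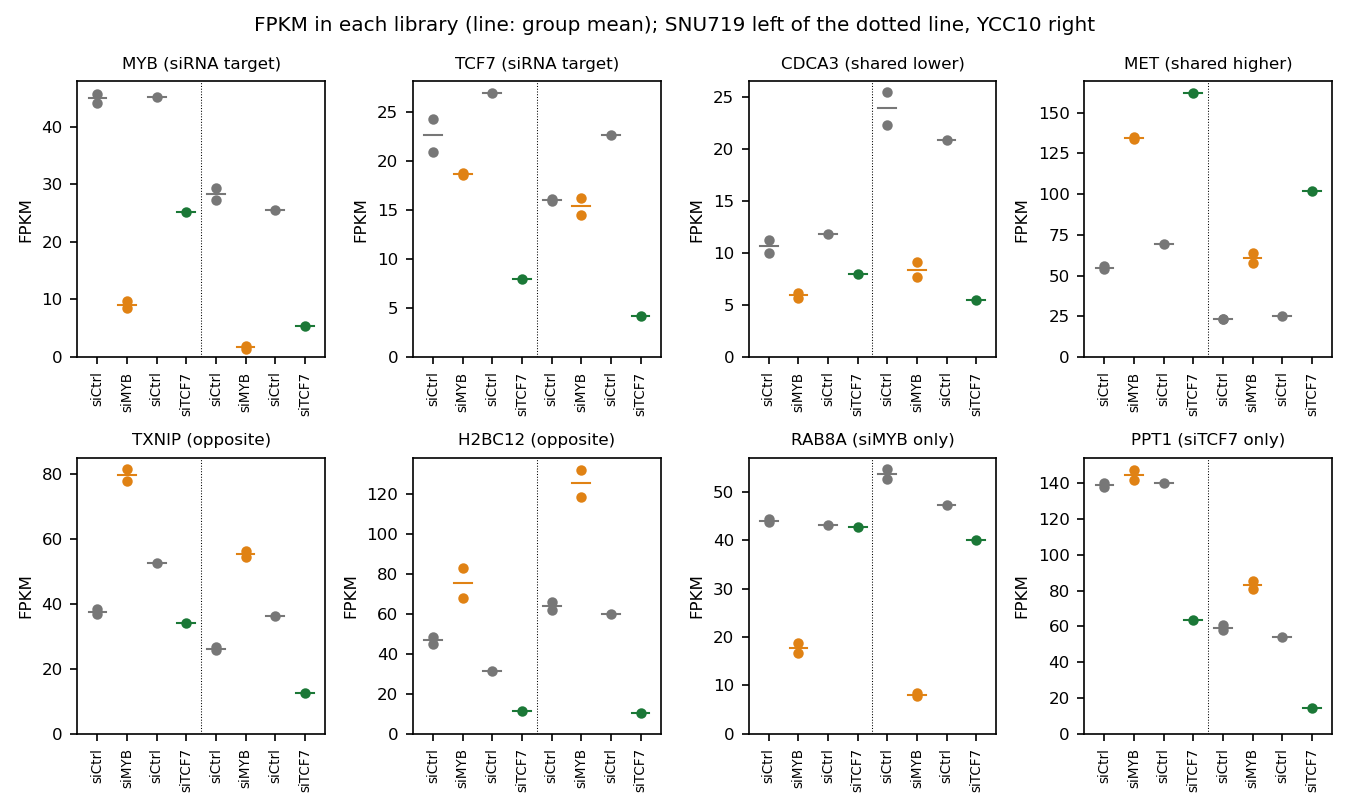
FPKM of 8 genes (vertical axes, linear and starting at 0) in each library of the MYB and TCF7 sets. Points are libraries, short lines are group means, grey is siCtrl, orange siMYB and green siTCF7; MYB is low with both siRNAs, RAB8A with siMYB and PPT1 with siTCF7, while TXNIP and H2BC12 stand above their controls with siMYB and below them with siTCF7.

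Over both lines 4509 of the 12172 genes changed with siMYB (37.0 percent; 12.6 percent higher and 24.4 percent lower) at an adjusted p under 0.05. With siTCF7 2364 changed (19.4 percent; 8.95 percent higher and 10.5 percent lower). The difference between both effects was tested directly and passed in 1123 genes (9.23 percent; 2.87 percent with the higher value for siMYB and 6.36 percent with the lower). In bulk RNA, fewer cells of one state and less RNA per cell cannot be told apart. The genes fall into classes by these 3 tests. There were 693 shared lower genes (5.69 percent), which fell with both siRNAs, and 461 shared higher genes (3.79 percent). Together they make up 25.6 percent of the siMYB calls and 48.8 percent of the siTCF7 calls. Of the 1304 genes called with both siRNAs 88.5 percent moved the same way, and 150 moved in opposite directions. The siMYB effect is an average over the lines, and its sign was the same in both lines for 116 of those 150. A gene counts as moving with siMYB only when siMYB and the difference passed and siTCF7 did not, which held for 632 genes (462 lower, 170 higher). The reverse held for 288 genes with siTCF7 (112 lower, 176 higher). The siMYB changes of both lines had the same sign in 121 of these 288, against 3296 of the 6603 genes called with neither siRNA. In the others siMYB changes of opposite sign were averaged. Another 2573 siMYB calls and 772 siTCF7 calls belong to neither class, because the difference did not pass.

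These counts rest on few libraries. The siTCF7 effect has 1 library per group and line, and a difference between the lines enters the spread of all 3 tests. Without the YCC10 siCtrl or siTCF7 library of the TCF7 set, siTCF7 calls were 498 or 504 and shared genes 312 or 317. Without the SNU719 siCtrl or siTCF7 library they were 3959 or 3954 and 2132 or 2134. Leaving out any 1 of the 8 MYB-set libraries gave 476 to 556 shared genes, 285 to 329 siMYB-only genes, 88 to 104 siTCF7-only genes and 61 to 74 opposite genes. With a block for same-numbered libraries the counts were 1485 siTCF7 calls, 772 shared genes, 604 siMYB-only and 189 siTCF7-only genes. Of the 1154 shared genes, 600 stayed in that class with the block. How many siMYB calls were rises depends on the scaling: 34.0 percent were with the values as deposited, 55.3 percent with median-of-ratios scaling, and 50.5 percent when libraries were quantile normalized.

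**Figure D2:**
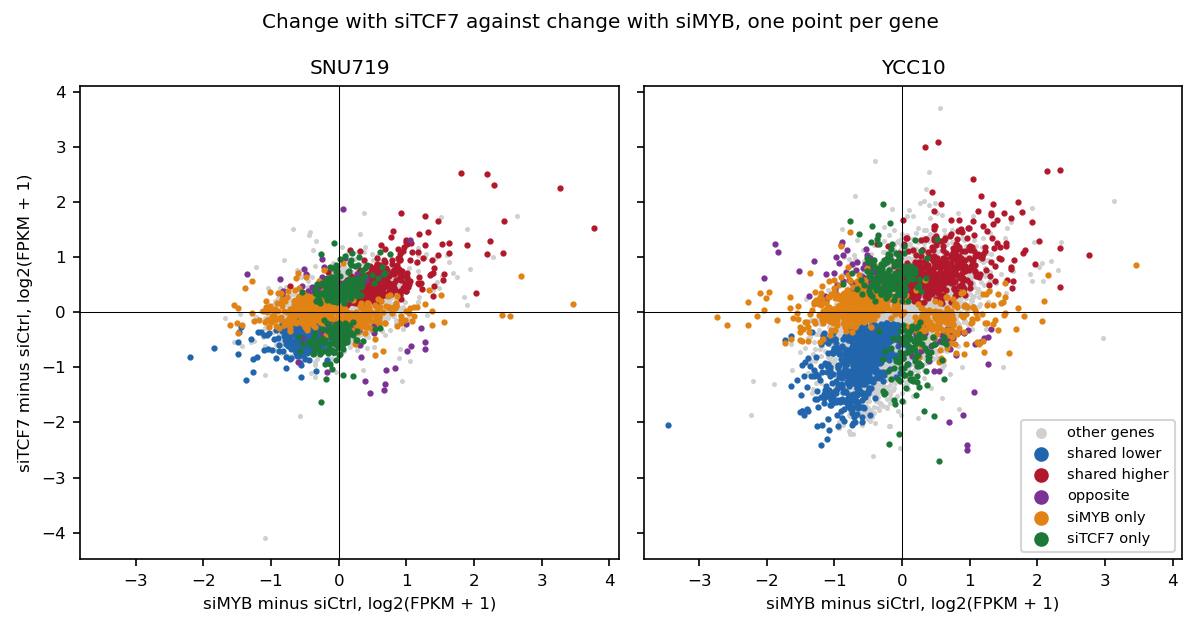
Change with siTCF7 (vertical) against change with siMYB (horizontal), both against their own siCtrl on log2(FPKM + 1), in SNU719 (left) and YCC10 (right); each point is 1 of 11695 genes, short RNA genes left out. Colours mark the classes fitted over both lines, and the shared genes lie along the rising diagonal in both panels, further from 0 with siTCF7 in YCC10.

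Genes that moved further with siMYB had, in the median, also moved further with siTCF7 in each line. Without short RNA genes, the 103 SNU719 genes that rose by at least 1 log2 unit with siMYB had a median siTCF7 change of 0.67, and the 65 that fell as far had one of -0.25. In YCC10 the medians were 0.72 for 192 genes and -0.49 for 247 genes. Genes within 0.25 of no siMYB change had medians of 0.00 (7642 genes) and 0.03 (5843 genes). Across genes, Spearman's rho between the siMYB and siTCF7 changes was 0.425 in SNU719 and 0.420 in YCC10 (n = 12172 genes, which share libraries and are not replicates). For scale, the siMYB changes of the 2 same-numbered library pairs gave 0.744 in SNU719 and 0.884 in YCC10. The siMYB changes of both lines gave 0.424 and the siTCF7 changes of both lines 0.584. Pairing siMYB in one line with siTCF7 in the other gave 0.316 and 0.25. Pearson's r depended on the 477 short RNA genes. With them it was 0.0541 in SNU719 and 0.222 in YCC10, and without them 0.484 and 0.449. In SNU719 it was -0.00235 without the second siCtrl library of the MYB set.

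**Figure D3:**
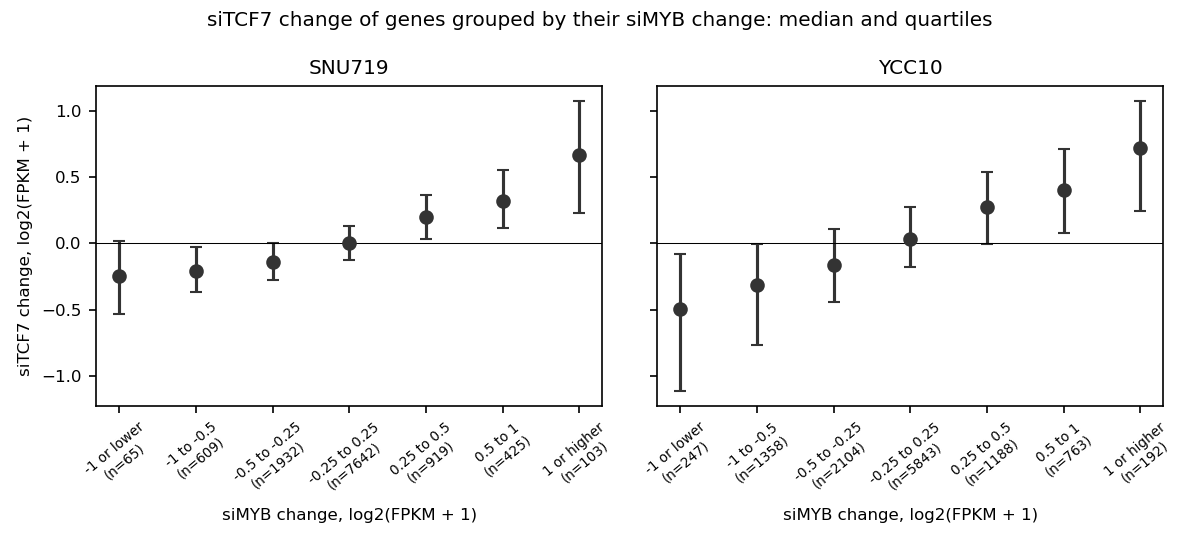
Median siTCF7 change (points) with quartiles (bars) of genes grouped by their siMYB change in the same line, both on log2(FPKM + 1), short RNA genes left out; n is the number of genes in each group. The medians run from -0.25 to 0.67 in SNU719 and from -0.49 to 0.72 in YCC10.

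Within a line, siTCF7 has no replicate. By size alone, 348 genes (2.86 percent) moved by at least 1 log2 unit with siMYB in SNU719 and 264 (2.17 percent) with siTCF7, and 71 did so with both in the same direction. In YCC10 the numbers were 622 (5.11 percent), 1032 (8.48 percent) and 170. Without short RNA genes 36 SNU719 and 129 YCC10 genes moved that far with both in the same direction. Opposite moves of that size were 44 and 39 with short RNA genes, and 0 and 3 without them. A fit with a siTCF7 effect in each line takes its spread from the MYB-set replicates and assumes that the single libraries vary like those. It called 23.0 percent of genes with siMYB, 4.17 percent with siTCF7 and 2.71 percent for the difference in SNU719. In YCC10 the shares were 41.5, 32.4 and 23.0 percent. Shared genes were 321 in SNU719 and 2009 in YCC10, opposite genes 31 and 419, siMYB-only genes 200 and 909, and siTCF7-only genes 78 and 889. The siTCF7 effect itself differed between the lines in 832 genes (6.84 percent). Of 692 shared lower genes that are no short RNA, 649 had the larger siTCF7 change in YCC10, against 8498 of 11695 genes in all.

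The shared lower genes include genes of DNA replication, chromosome segregation and ribosome assembly, although 638 of the 693 lie outside the G1/S and G2/M lists. The promoters of 4 mitotic genes are shown, since the MuvB complex is known to act through CHR elements beside CCAAT boxes. They are the 4 with the lowest siMYB p of 7 shared lower genes of the G2/M list that hold both letter patterns in the 200 bases before the RefSeq start, and were chosen after their values were seen. Capitals mark the CHR element, spelled TTTGAA, and the box spelled CCAAT, on either strand, read from RefSeq promoters of build GRCh38.p14.
DLGAP5 (chr14:55191586-55191785, minus strand): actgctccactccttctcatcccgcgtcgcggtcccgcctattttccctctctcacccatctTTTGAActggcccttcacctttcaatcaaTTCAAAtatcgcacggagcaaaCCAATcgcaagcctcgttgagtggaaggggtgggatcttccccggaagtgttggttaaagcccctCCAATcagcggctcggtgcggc
CCNB2 (chr15:59104946-59105145, plus strand): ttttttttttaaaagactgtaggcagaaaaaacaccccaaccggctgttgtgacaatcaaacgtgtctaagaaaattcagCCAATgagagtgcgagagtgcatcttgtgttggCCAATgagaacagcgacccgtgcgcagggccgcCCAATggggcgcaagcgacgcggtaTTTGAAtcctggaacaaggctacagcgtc
PLK1 (chr16:23678689-23678888, plus strand): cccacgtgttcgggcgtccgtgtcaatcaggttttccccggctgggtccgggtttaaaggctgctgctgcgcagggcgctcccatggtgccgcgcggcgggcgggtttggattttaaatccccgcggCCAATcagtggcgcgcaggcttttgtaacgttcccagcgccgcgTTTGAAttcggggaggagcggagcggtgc
HMMR (chr5:163460432-163460631, plus strand): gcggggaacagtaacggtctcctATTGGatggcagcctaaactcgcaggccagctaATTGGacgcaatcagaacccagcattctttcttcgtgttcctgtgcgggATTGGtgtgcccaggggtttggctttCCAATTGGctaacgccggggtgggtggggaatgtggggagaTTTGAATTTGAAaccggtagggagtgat

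CCNB2 encodes cyclin B2, a partner of the mitotic kinase CDK1. CCNB2 stood at 63.3 and 63.5 FPKM in the SNU719 controls, 40.3 and 36.0 with siMYB, and in YCC10 at 70.7 and 65.9 against 43.5 and 45.9. With siTCF7 it went from 42.6 to 23.4 in SNU719 and from 53.2 to 13.5 in YCC10. No treated library of CCNB2 reached its controls; the changes were -0.66 (adjusted p = 0.0154) and -1.37 (adjusted p = 0.0156). PLK1, the kinase that drives spindle assembly, fell by 0.64 (adjusted p = 0.0156) and by 1.32 (adjusted p = 0.0163). DLGAP5, a spindle protein, fell by 0.71 (adjusted p = 0.0135) and by 1.09 (adjusted p = 0.0243), and HMMR, another spindle protein, by 0.85 (adjusted p = 0.0213) and by 1.35 (adjusted p = 0.0288). The siTCF7 calls of DLGAP5 and HMMR were lost with the block (0.0559 and 0.0592). When 1 library was left out in turn, HMMR lost its siTCF7 call without any MYB-set library or TCF7-set library of YCC10 (up to 0.185) and its siMYB call in 6 of the cases (up to 0.0715). DLGAP5 lost its siTCF7 call in 2 (up to 0.0795), and CCNB2 and PLK1 their siMYB calls in 3 each (up to 0.0536 and 0.0525). TTTGAA occurs in 71.1 percent of 45 G2/M promoters of 300 bases (250 before to 50 after the start), against 9.81 percent of the 9212 promoters matched to tested genes, and CCAAT in 80.0 against 37.8 percent.

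Of 52 genes of the G2/M list tested, 25 fell with siMYB (background 24.4 percent) and 47 with siTCF7 (10.5 percent), and 0 rose with either (limma; 0 rose at an unadjusted p under 0.05). All 25 siMYB calls were shared. The medians were -0.41 and -0.59 with siMYB in SNU719 and YCC10, and -0.55 and -1.72 with siTCF7, against -0.06, -0.07, 0.00 and 0.00 over all genes. The difference passed in 0 of 52 over both lines in limma, and in 20 at an unadjusted p under 0.05, all with the lower value for siTCF7. In the fit within YCC10, siTCF7 fell below siMYB in 45 of 52 (background 9.83 percent). Within SNU719 the limma difference passed in 0, and in 5 at an unadjusted p under 0.05. The counts moved with the settings, as did those over all genes. With the replicate block 4562 of all genes passed with siMYB, 34.5 percent of them as rises, and 1485 with siTCF7. With that block, or without 1 MYB-set library, the list's share of siMYB falls lay below the share over all genes. Its share of siTCF7 falls stayed above. Without either TCF7-set library of SNU719, siTCF7 calls and differences rose over all genes too. With the replicate block 9 G2/M genes fell with siMYB and 9 with siTCF7; without 1 MYB-set library 4 to 8 and 24 to 31 did. Without either TCF7-set library of YCC10 51 fell with siMYB and 22 with siTCF7, and without either SNU719 one 51 fell with each and the difference passed in 50.

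CDCA3, which triggers degradation of the mitotic inhibitor WEE1, stood at 10.0 and 11.3 FPKM in the SNU719 controls and at 5.65 and 6.20 with siMYB, and at 22.4 and 25.5 against 7.74 and 9.09 in YCC10. With siTCF7 it went from 11.8 to 8.03 and from 20.9 to 5.48. The changes of CDCA3 were nearly equal, -1.08 (SE 0.183, adjusted p = 0.00501) and -1.13 (SE 0.258, adjusted p = 0.0295), with a difference of 0.05 (SE 0.316, adjusted p = 0.938). Its siTCF7 call was lost with the block (0.0615), without any 1 of the 8 MYB-set libraries (0.0518 to 0.0555) and without either TCF7-set library of YCC10 (0.148). SPC25, a kinetochore protein, fell by 0.99 (adjusted p = 0.00158) and by 0.97 (adjusted p = 0.0195). Its siTCF7 call was lost without either TCF7-set library of YCC10 (0.08 and 0.0803). AURKB, the kinase of the chromosomal passenger complex, fell by 0.75 (adjusted p = 0.0184) with siMYB and by 1.32 (adjusted p = 0.0231) with siTCF7, the latter lost with the block (0.0538). The siMYB call of AURKB was lost without any of 6 MYB-set libraries (0.0526 to 0.0616).

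Of 50 genes of G1/S and replication, 34 fell with siMYB (24.4 percent of all genes), 41 with siTCF7 (10.5 percent of all), and 30 with both (5.69 percent of all). In limma 0 rose with either siRNA, also at an unadjusted p under 0.05, and the difference passed in 0 (6 at an unadjusted p under 0.05). Medians were -0.36 and -0.70 with siMYB and -0.35 and -1.22 with siTCF7. Within YCC10 the siTCF7 change was below the siMYB change in 46 of the 50 (5138 of all 12172 genes). In the settings that follow, calls over all genes moved too. Without either TCF7-set library of SNU719, siTCF7 calls and differences rose over all genes. With the block 26 and 5 fell, without 1 MYB-set library 21 to 25 and 13 to 20, and without either TCF7-set library of YCC10 46 and 10 or 11. Without either SNU719 one 46 and 49 fell, and the difference passed in 37, lower with siTCF7. PRIM1, the primase that starts each new DNA strand, stood at 20.8 and 21.1 FPKM in the SNU719 controls and 11.9 and 12.7 with siMYB, and at 26.3 and 24.7 against 9.43 and 8.86 in YCC10. With siTCF7 PRIM1 went from 18.3 to 11.9 and from 26.3 to 6.92. Its libraries with siRNA lay below every control of the line, with changes of -1.06 (SE 0.168, adjusted p = 0.00398) and -1.18 (SE 0.237, adjusted p = 0.0237; 0.0555 with the block). CDT1, which loads the replicative helicase, fell by 0.91 (adjusted p = 0.00517) and by 0.92 (adjusted p = 0.0325; lost with the block at 0.0654, without any 1 MYB-set library at 0.0501 to 0.0599, and without either TCF7-set library of YCC10 at 0.257).

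Of 41 nucleolar genes of ribosome biogenesis, 33 fell and 1 rose with siMYB (24.4 and 12.6 percent of all genes), and 21 fell with siTCF7 (10.5 percent of all). Of them 18 fell with both (5.69 percent of all). Without either TCF7-set library of YCC10 2 nucleolar genes fell with siTCF7, and without 1 MYB-set library 13 to 15. Medians were -0.20 and -0.52 with siMYB and -0.25 and -0.30 with siTCF7. RRP1B, a nucleolar processing factor, read 18.9 and 17.7 FPKM in the SNU719 controls and 11.2 and 11.8 with siMYB, and 30.3 and 30.6 against 10.6 and 10.0 in YCC10. With siTCF7 RRP1B went from 19.4 to 11.1 and from 30.3 to 8.07. Groups did not overlap, and both changes of RRP1B held their calls with the block and without each library (-1.05, SE 0.145, adjusted p = 0.0024; -1.27, SE 0.205, adjusted p = 0.0166). LYAR, a nucleolar cofactor, fell by 0.69 (adjusted p = 0.000751) and by 0.61 (adjusted p = 0.0158; lost without either TCF7-set library of YCC10 at 0.0933 and 0.0938).

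Among 11 tested members of the MYB family and MuvB list, 7 fell with siMYB (24.4 percent of all genes), 7 with siTCF7 (10.5 percent) and 5 with both (5.69 percent): MYB, MYBL2, FOXM1, TFDP1 and LIN9. The siMYB count holds the target MYB itself, whose fall was set by the design. The difference passed in 1 member, which was MYB. Without either TCF7-set library of SNU719 more of the list fell with siTCF7, and the difference passed in more members as lower with siTCF7. In that setting siTCF7 calls and differences also rose over all genes. The siTCF7 calls of TFDP1, the E2F partner, and LIN9, a MuvB subunit, were lost with the block (0.0653 and 0.0626) and without any 1 MYB-set library (up to 0.0562 and 0.0674), as was the siMYB call of LIN9 without any of 5 of them (up to 0.0641). MYBL2, the MuvB activator, read 92.1 and 104 FPKM in the SNU719 controls and 59.7 in each siMYB library, and 109 and 123 against 48.1 and 51.3 in YCC10. With siTCF7 MYBL2 went from 93.2 to 51.8 and from 114 to 20.5. The groups of MYBL2 did not overlap, and its changes were -0.95 (SE 0.221, adjusted p = 0.0156) and -1.63 (SE 0.312, adjusted p = 0.0222; 0.0528 with the block). Without the second SNU719 or YCC10 siCtrl or the first YCC10 siMYB library, the siMYB call of MYBL2 was lost (0.0511 to 0.0522). FOXM1, the late activator of mitotic genes, fell by 0.67 (adjusted p = 0.0135) and by 1.09 (adjusted p = 0.022; 0.0531 with the block). E2F4 and MYBL1 fell with siMYB, by 0.73 (adjusted p = 0.00252) and 0.52 (adjusted p = 0.016), and LIN52 and RBBP4 with siTCF7, by 0.53 (adjusted p = 0.0346) and 0.47 (adjusted p = 0.0368). For these 4 the difference did not pass (adjusted p = 0.0562 to 0.278). The siTCF7 count in this list was 2 with the block, 3 without any 1 MYB-set library and 2 without either TCF7-set library of YCC10.

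Among the shared higher genes, MET, the receptor of hepatocyte growth factor, stood at 55.8 and 54.0 FPKM in the SNU719 controls and at 135 and 134 with siMYB, and at 23.3 and 23.4 against 64.0 and 57.9 in YCC10. With siTCF7 MET went from 69.4 to 162 and from 25.4 to 102. All siRNA libraries of MET lay above the controls of their line; the rise was 1.31 with siMYB (adjusted p = 0.000428, SE 0.11) and 1.59 with siTCF7 (adjusted p = 0.00492, SE 0.156), with a difference of -0.28 (SE 0.191, adjusted p = 0.387). TNFSF15, the TNF-family cytokine TL1A, read 0.577 and 0.633 FPKM in the SNU719 controls and 6.92 and 6.20 with siMYB, and 0.893 and 0.839 against 3.6 and 3.34 in YCC10. With siTCF7 TNFSF15 went from 0.981 to 3.85 and from 1.72 to 6.59. The groups did not overlap, with rises of 1.75 (SE 0.062, adjusted p = 2.29e-05) and 1.39 (SE 0.0877, adjusted p = 0.00154).

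SPRR3, a cornified envelope protein, rose by 2.15 with siMYB (adjusted p = 0.000963, SE 0.227) and by 2.31 with siTCF7 (adjusted p = 0.0119, SE 0.321), mostly in SNU719 with the first and in YCC10 with the second. In SNU719 SPRR3 read 0.623 and 0.296 FPKM in the controls and 19.4 and 18.3 with siMYB, and 1.05 against 4.87 with siTCF7. In YCC10 it read 24.6 and 25.3 against 33.7 and 39.6 with siMYB, and 32.1 against 281 with siTCF7. IL33, an alarmin of epithelium, rose in SNU719 from 2.91 and 2.05 FPKM to 33.7 and 30.9 with siMYB and from 1.55 to 11.1 with siTCF7. In the YCC10 controls IL33 is listed at 0, with 0.0232 and 0.0155 under siMYB and 1.35 under siTCF7. Its averaged changes were 1.65 (adjusted p = 0.000755) and 1.74 (adjusted p = 0.0106). MMP7, a WNT-regulated matrix protease, read 86.2 and 88.4 FPKM in the YCC10 controls against 443 and 445 with siMYB, and 120 against 722 with siTCF7. In SNU719 MMP7 went from 5.81 and 4.50 to 19.7 and 14.3 with siMYB and from 6.55 to 10.3 with siTCF7. It rose by 1.94 (adjusted p = 0.00316) and by 1.58 (adjusted p = 0.0385). The siTCF7 call of MMP7 was lost with the block (0.0758), without any 1 MYB-set library (0.0629 to 0.0674) and without either TCF7-set library of YCC10 (0.242).

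Of the 8 shared higher genes named by size, ANXA10, an annexin of gastric surface cells, KRTAP3-1, a keratin-associated protein, and SPRR1B, a cornified envelope protein, complete the list. They rose by 1.52, 1.39 and 1.32 with siMYB (adjusted p = 0.00585, 0.00936 and 0.00251) and by 1.56, 2.04 and 1.82 with siTCF7 (adjusted p = 0.0335, 0.023 and 0.0128). The siTCF7 calls of ANXA10 and KRTAP3-1 were lost with the block (0.072 and 0.0521), and that of SPRR1B with a pseudocount of 0.1 (0.0517). That of ANXA10 was also lost without any 1 MYB-set library (0.0567 to 0.0618) or either TCF7-set library of SNU719 (0.0707 and 0.0715), and that of KRTAP3-1 without either TCF7-set library of YCC10 (0.0659 and 0.0656). Of 10 squamous and cornified genes tested, 5 rose and 3 fell with siMYB (12.6 and 24.4 percent of all genes), and 3 rose and 1 fell with siTCF7 (8.95 and 10.5 percent). Among them 3 were shared higher and 1, the protease inhibitor CSTA, shared lower. For CSTA the siTCF7 call (adjusted p = 0.0303) was lost with the block (0.0653), without the filter on low values (0.0617), without any 1 MYB-set library (0.0543 to 0.0564) and without either TCF7-set library of YCC10 (0.122 to 0.126). CLDN1, a tight junction protein, rose by 1.18 (adjusted p = 0.000414) and by 1.46 (adjusted p = 0.00456). PI3, the elastase inhibitor elafin, rose by 1.30 (adjusted p = 0.00403) and by 1.93 (adjusted p = 0.0146). MCL1, a blocker of apoptosis, rose by 1.02 (adjusted p = 0.000255) and by 0.89 (adjusted p = 0.00773), and SGK1, a survival kinase, by 0.95 (adjusted p = 0.000111) and by 0.67 (adjusted p = 0.00571). For SPINK4, a peptide of goblet cells, the rise was 1.86 (adjusted p = 5.72e-05) with siMYB and 1.16 (adjusted p = 0.00485) with siTCF7, and the difference of 0.71 passed (adjusted p = 0.0275). That difference was lost without any 1 TCF7-set library (0.0585 to 0.0596), without either YCC10 siCtrl or any siMYB library of the MYB set (0.0535 to 0.0676), and with all 16 libraries (0.052). The siMYB and siTCF7 calls of CLDN1, PI3, MCL1, SGK1 and SPINK4 held with the block and without each library.

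Some genes moved in opposite directions. TXNIP, the inhibitor of thioredoxin that is induced by glucose, read 38.3 and 36.8 FPKM in the SNU719 controls and 77.6 and 81.4 with siMYB, and 26.6 and 25.6 against 56.3 and 54.4 in YCC10. With siTCF7 TXNIP went from 52.4 to 34.0 and from 36.1 to 12.6. It thus stood above its controls with siMYB and below them with siTCF7 in both lines. The changes of TXNIP were 1.06 (SE 0.12, adjusted p = 0.00123) and -1.03 (SE 0.169, adjusted p = 0.017), and the difference was 2.09 (SE 0.207, adjusted p = 0.00381). H2BC12, a histone H2B gene, read 48.4 and 45.0 FPKM against 83.1 and 67.9 with siMYB in SNU719, and 66.2 and 62.0 against 132 and 119 in YCC10. With siTCF7 H2BC12 went from 31.6 to 11.2 and from 59.8 to 10.5. Neither comparison overlapped (0.82, adjusted p = 0.00735; -1.91, adjusted p = 0.00761; difference 2.73, SE 0.266, adjusted p = 0.0036). H2B genes are near-identical copies, so how reads were divided among them is uncertain; the calls of TXNIP and H2BC12 held with the block and without each library.

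CXCL5, a neutrophil attractant, read 95.0 and 87.1 FPKM in the SNU719 controls and 231 and 214 with siMYB, against 129 and 81.5 with siCtrl and siTCF7. In YCC10 CXCL5 read 31.8 and 27.6 against 62.4 and 55.2, and 37.8 against 5.85. Its difference was 2.70 (SE 0.444, adjusted p = 0.0164). The siTCF7 call of CXCL5 (-1.58, adjusted p = 0.0299) was lost with the block (0.0661), without any 1 MYB-set library (0.0533 to 0.0565) and without either TCF7-set library of YCC10 (0.0708 and 0.0705). Its siMYB call (1.12, adjusted p = 0.015) was lost without the second YCC10 siCtrl, the first SNU719 siMYB or the first YCC10 siMYB library (0.0504 to 0.0511). In the other direction, RFLNA, an actin-binding regulator of filamin, fell by 1.12 with siMYB (adjusted p = 0.00079) and rose by 0.98 with siTCF7 (adjusted p = 0.0165; 0.0981 and 0.0992 without either TCF7-set library of YCC10). REG4, a secreted lectin of gastrointestinal tumours, was opposite in YCC10 and not in SNU719. In SNU719 REG4 read 151 and 153 FPKM against 324 and 308 with siMYB, and 146 against 364 with siTCF7. In YCC10 it read 44.4 and 48.4 against 11.4 and 12.3 with siMYB, and 48.1 against 115 with siTCF7.

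The genes that moved with siMYB only had the difference tested. RAB8A, a small GTPase of secretion, read 43.8 and 44.4 FPKM in the SNU719 controls and 18.7 and 16.6 with siMYB, and 52.7 and 54.7 against 8.33 and 7.81 in YCC10. With siTCF7 RAB8A read 42.7 against 43.1 in SNU719 and 40.03 against 47.4 in YCC10. The siMYB libraries stood far below all others (-1.93, SE 0.0585, adjusted p = 1.4e-05), the siTCF7 change was -0.12 (adjusted p = 0.309), and the difference was -1.81 (SE 0.101, adjusted p = 0.00054). AHCYL2, a regulator of bicarbonate transport, read 21.3 and 20.2 against 7.01 and 6.48 with siMYB in SNU719, and 35.1 and 32.7 against 7.96 and 7.84 in YCC10. With siTCF7 AHCYL2 read 21.4 against 20.2 and 36.7 against 28.0. It fell with siMYB (-1.73, adjusted p = 2.29e-05), and the difference was -1.96 (SE 0.106, adjusted p = 0.00054). The mitochondrial carrier SLC25A23, the thioesterase ACOT11, the focal adhesion adaptor LPXN, the mitochondrial import subunit TIMM17A and the endoplasmic reticulum protein EI24 had differences of -1.88, -1.87, -1.73, -1.72 and -1.59 (adjusted p = 0.00311, 0.00311, 0.00054, 0.00149 and 0.00054). These 7 genes kept both calls with the block and without each library. SUSD4, a complement regulator, completes the 8, with a difference of -1.64 (adjusted p = 0.0387) that was lost with the block (0.0833) and without any 1 MYB-set library (0.0686 to 0.0885); its siMYB call was lost without the first YCC10 siMYB library (0.0533).

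Higher with siMYB only was SULT1E1, which inactivates estrogens. SULT1E1 read 0.315 and 0.341 FPKM in the SNU719 controls and 6.11 and 5.98 with siMYB, and 9.72 and 8.44 against 43.8 and 40.8 in YCC10. With siTCF7 SULT1E1 read 0.484 against 0.545 and 6.70 against 5.72. Its siMYB change was 2.26 (SE 0.0649, adjusted p = 1.4e-05), its siTCF7 change 0.07 (adjusted p = 0.624) and the difference 2.19 (SE 0.112, adjusted p = 0.00054; 0.0936 in the fit with all 16 libraries). LEMD1, a cancer-testis antigen, rose by 2.99 with siMYB (SE 0.147, adjusted p = 9.54e-05), and the difference was 2.61 (adjusted p = 0.00361). AP1S3, an adaptor of vesicle sorting, rose by 1.15 (adjusted p = 0.000188), with a difference of 1.33 (adjusted p = 0.00342). IGFL1, an epithelial secreted peptide, rose by 1.90 on average (adjusted p = 0.000227), with a difference of 1.53 (adjusted p = 0.0115) that rests on SNU719. There IGFL1 read 0.216 and 0.215 FPKM against 10.1 and 15.1; in YCC10 it read 2.98 and 2.87 against 3.73 and 4.19 with siMYB, and 3.36 against 5.57 with siTCF7.

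Among the genes lower with siTCF7 only was PPT1. PPT1, a lysosomal thioesterase, read 140 FPKM in the SNU719 control and 63.6 with siTCF7, and 54.3 against 14.1 in YCC10. With siMYB PPT1 read 142 and 147 against controls of 140 and 138 in SNU719, and 80.8 and 85.1 against 60.8 and 57.7 in YCC10. PPT1 fell with siTCF7 (-1.50, SE 0.153, adjusted p = 0.00542), the siMYB change was 0.27 (adjusted p = 0.0934), and the difference was 1.77 (SE 0.187, adjusted p = 0.00482). TXN, the thioredoxin that TXNIP binds, read 828 against 405 with siTCF7 in SNU719 and 382 against 71.9 in YCC10. With siMYB TXN read 805 and 833 against 862 and 900, and 420 and 423 against 483 and 482. It fell with siTCF7 (-1.71, adjusted p = 0.015). The TXN difference was lost without the filter on low values (adjusted p = 0.0634). The difference of 1.56 (adjusted p = 0.0318) was lost with the block (0.0763), after quantile normalization (0.0624) and without any 1 MYB-set library (0.0719 to 0.0793). EFCAB14, a calcium-binding protein, fell by 1.48 (adjusted p = 0.00456), with a difference of 1.74 (adjusted p = 0.0036). RPL36A, a ribosomal protein with related gene copies, fell by 1.24 (adjusted p = 0.00914), with a difference of 1.22 (adjusted p = 0.0135). PDIA5, a disulfide isomerase, fell by 1.96 (adjusted p = 0.0145), with a difference of 2.14 (adjusted p = 0.0182; 0.0521 with the block, and 0.0516 to 0.0531 without the first siCtrl library of either line or the second SNU719 siMYB library).

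Higher with siTCF7 only was PNMA1, a neuronal antigen gene. PNMA1 read 47.3 FPKM against 96.6 with siTCF7 in SNU719 and 31.9 against 67.0 in YCC10. With siMYB PNMA1 read 33.4 and 34.5 against 30.2 and 33.4, and 28.4 and 29.4 against 30.1 and 30.4. The siMYB and control libraries of PNMA1 overlapped in SNU719. The siTCF7 change was 1.03 (SE 0.0657, adjusted p = 0.00154) with a difference of -1.02 (SE 0.0805, adjusted p = 0.00239). SLC1A1, a glutamate transporter, read 28.8 against 57.5 and 1.64 against 5.94 with siTCF7. With siMYB SLC1A1 read 28.6 and 26.9 against 27.4 and 27.4 in SNU719, and 0.766 and 0.856 against 1.34 and 1.31 in YCC10. It rose with siTCF7 by 1.18 (adjusted p = 0.00334), and the difference was -1.35 (adjusted p = 0.00311). MXD1, a MYC antagonist, rose with siTCF7 by 1.34 (adjusted p = 0.00773). MXD1 also rose with siMYB within SNU719 (0.76, adjusted p = 0.0107), not over both lines (0.29, adjusted p = 0.0739). Its difference (-1.04, adjusted p = 0.0217) was lost without the first siCtrl or second siMYB library of either line (0.0551 to 0.0571) and without either TCF7-set library of YCC10 (0.0766 and 0.0771). VIL1, the brush border protein villin, rose by 0.86 (adjusted p = 0.0405). The VIL1 call and its difference (-1.18, adjusted p = 0.0461) were lost with the block (0.0848 and 0.0929) and without any 1 MYB-set library (0.065 to 0.072 and 0.084 to 0.099), the call also without either TCF7-set library of YCC10 (0.199 and 0.2), and the difference also after median-of-ratios scaling (0.0559) and quantile normalization (0.0528).

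**Figure D4:**
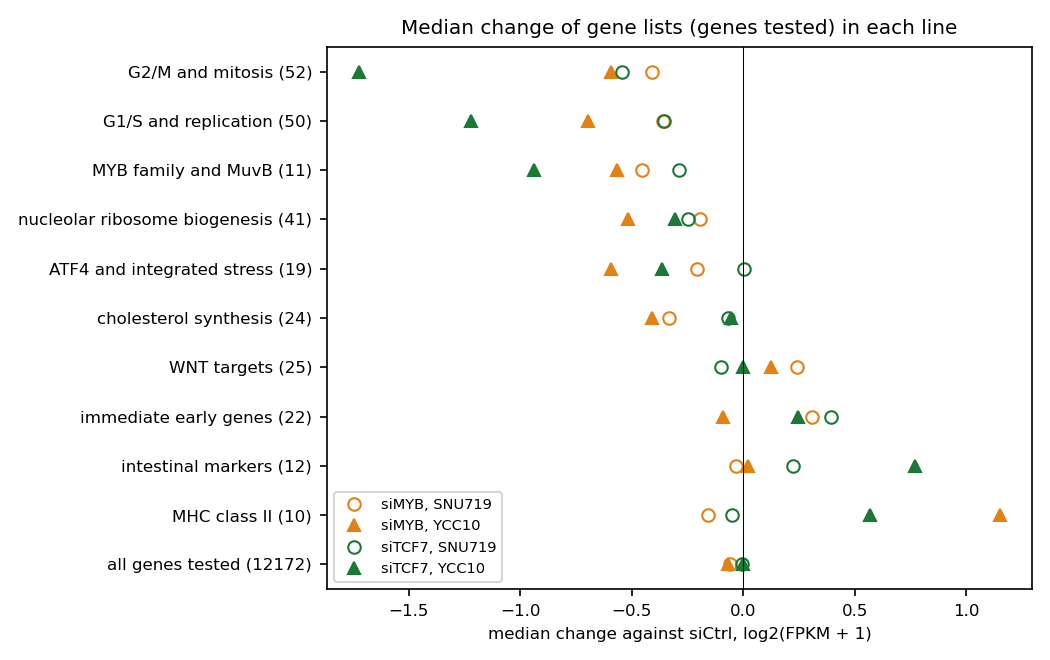
Median change against siCtrl on log2(FPKM + 1) of the genes tested in 10 gene lists and of all genes, in each line (circles SNU719, triangles YCC10) and with each siRNA (orange siMYB, green siTCF7). The G2/M list stands at -1.72 with siTCF7 in YCC10 and the cholesterol list below -0.30 with siMYB in both lines.

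Of 24 cholesterol synthesis genes 17 fell with siMYB (24.4 percent of all genes) and 2 with siTCF7, near the 10.5 percent of all, with medians of -0.33 and -0.41 against -0.07 and -0.06. The difference passed in 6 of the 24, all lower with siMYB (6.36 percent of all genes). That count was 0 to 2 without 1 MYB-set library, 1 without either TCF7-set library of YCC10, 3 without the filter on low values and 1 after quantile normalization. SC5D, a late sterol desaturase, fell by 0.44 with siMYB (adjusted p = 0.0213) and had a siTCF7 change of 0.47 (adjusted p = 0.0766). The SC5D difference was lost without the filter on low values (adjusted p = 0.0667) and after quantile normalization (0.0665). Its difference (-0.91, adjusted p = 0.034) was lost without any 1 MYB-set library (0.0527 to 0.0782) and without either TCF7-set library of YCC10 (0.144 and 0.145). Its siMYB call was lost without the first siCtrl or second siMYB library of either line (0.0689 to 0.0711) and after median-of-ratios (0.0502) or quantile scaling (0.0603).

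Of 25 WNT target genes, TCF7 among them, 13 rose and 5 fell with siMYB, against 12.6 and 24.4 percent of all genes. With siTCF7 3 rose and 3 fell, near the 8.95 and 10.5 percent of all. In limma 3 rose and 9 fell at an unadjusted p under 0.05, for which no share over all genes was counted. In SNU719 20 of the 25 were lower with siTCF7 (6182 of 12172 genes in all), with a median of -0.10. In YCC10 11 were lower (5776 of all), with a median of 0.00. TCF7, the siRNA's own target, is among the siTCF7 falls and among the differences higher with siMYB. The difference passed in 9 with the higher value for siMYB (2.87 percent of all genes; 5 to 7 of the list without 1 MYB-set library) and in 1 with the lower (6.36 percent). BMP4, a secreted differentiation signal, read 2.67 and 2.82 FPKM against 8.83 and 11.3 with siMYB in SNU719, and 0.837 and 1.12 against 4.75 and 5.52 in YCC10. With siTCF7 BMP4 went from 2.41 to 4.48 and from 0.522 to 1.25. It was above its controls with both siRNAs (1.59, adjusted p = 0.000168; 0.62, adjusted p = 0.0254), and further with siMYB (0.97, adjusted p = 0.0172; lost without the first SNU719 siCtrl library of the MYB set, 0.0504, and without either TCF7-set library of YCC10, 0.0711 and 0.071). The siTCF7 call of BMP4 was lost without either library of the TCF7 set in YCC10 (0.128) or SNU719 (up to 0.0768), and without the first SNU719 siCtrl library of the MYB set (0.0504). In the TCF/LEF list of 13 genes, 3 rose and 3 fell with siMYB (12.6 and 24.4 percent of all genes), and 2 rose and 3 fell with siTCF7 (8.95 and 10.5 percent). These counts are few, that of falls with siTCF7 holds the target TCF7 itself, and that of falls with siMYB is near the share over all genes. CTNNB1, beta-catenin, rose by 0.41 with siMYB (adjusted p = 0.000559) and had a siTCF7 change of 0.10 (adjusted p = 0.213). Its difference between both siRNAs was lost after quantile normalization (0.29, adjusted p = 0.312). The difference of 0.31 (adjusted p = 0.0325) was lost without any 1 MYB-set library (0.0676 to 0.0845) and without either TCF7-set library of YCC10 (0.0614 and 0.0632). TCF7L2, a relative of TCF7, rose with both (0.34, adjusted p = 0.0139; 0.41, adjusted p = 0.0399, the latter lost with the block at 0.0566, without any of 6 MYB-set libraries at 0.0672 to 0.0694, and without either TCF7-set library of YCC10 at 0.351 and 0.352).

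Of 12 intestinal markers 5 rose with siTCF7 (8.95 percent of all genes) and 0 fell (limma; 0 also at an unadjusted p under 0.05). With siMYB 2 rose and 3 fell, near the 12.6 and 24.4 percent of all. With the block 1 rose with siTCF7, and without 1 MYB-set library 2 or 3. Of the 5 siTCF7 rises 2 were shared higher. The difference passed in 4 with the lower and 1 with the higher value for siMYB (6.36 and 2.87 percent of all genes). The count of 4 was 2 with the block, 1 or 2 without 1 MYB-set library and 1 after quantile normalization. Of 10 MHC class II genes 7 rose and 1 fell with siMYB (12.6 and 24.4 percent of all genes). With siTCF7 1 rose (8.95 percent), and the difference passed in 1 (0 with the block). Without either TCF7-set library of SNU719 more of the list rose with siTCF7, while siTCF7 calls over all genes also rose. In YCC10 2 of the 10 were lower with each siRNA, and the median rose further with siMYB. In SNU719 8 of the 10 were lower with siMYB (7312 of all 12172 genes) and 6 with siTCF7 (6182 of all). The siMYB rises averaged over both lines thus came largely from YCC10. The medians of that list were -0.16 and 1.15 with siMYB in SNU719 and YCC10, and -0.05 and 0.57 with siTCF7. Of 22 immediate early genes 7 rose and 3 fell with siMYB (12.6 and 24.4 percent of all genes), and 7 rose and 1 fell with siTCF7 (8.95 and 10.5 percent). FOSL1, a subunit of AP-1, fell with siMYB in YCC10 from 7.99 and 6.97 FPKM to 0.857 and 0.657, and read 5.77 and 4.94 against 5.74 and 5.49 in SNU719. With siTCF7 FOSL1 read 8.93 against 7.77 and 8.28 against 7.17, and the averaged difference was -1.35 (adjusted p = 0.00311). Of 19 genes of the ATF4 and integrated stress list 11 fell and 2 rose with siMYB (24.4 and 12.6 percent of all genes), and 5 fell and 2 rose with siTCF7 (10.5 and 8.95 percent), with 5 falling with both (5.69 percent). The siTCF7 fall count in that list was 2 with the block, without 1 MYB-set library and without either TCF7-set library of YCC10. PSAT1, which makes serine, fell by 1.13 with each siRNA (adjusted p = 0.00424 and 0.0297), and the siTCF7 call was lost with the block (0.0669) and without any 1 MYB-set library (0.0535 to 0.0565).

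Among 22 genes of the NRF2 and aldo-keto reductase list, 9 fell and 1 rose with siMYB (24.4 and 12.6 percent of all genes). With siTCF7 1 fell (10.5 percent). Without either TCF7-set library of SNU719 more of the list fell with siTCF7, while siTCF7 calls over all genes also rose. The siMYB median was -0.35 in SNU719, where 19 of 22 were lower, and 0.02 in YCC10, where 11 were. Over all genes the siMYB medians were -0.06 and -0.07, with 7312 and 7033 of 12172 genes lower. Medians of the list with siTCF7 were -0.10 and 0.02. The difference passed in 1 with the higher and 1 with the lower value for siMYB, near the 2.87 and 6.36 percent of all genes. TXNRD1, the thioredoxin reductase, read 77.0 and 75.1 FPKM against 43.3 and 46.7 with siMYB in SNU719, and 47.6 and 46.0 against 11.4 and 10.3 in YCC10. With siTCF7 TXNRD1 read 96.2 against 109 and 59.0 against 49.3. It fell with siMYB alone (-1.38, adjusted p = 0.000148; difference -1.42, adjusted p = 0.00342). PGD, a dehydrogenase of the pentose phosphate pathway, fell with siTCF7 alone (-0.91, adjusted p = 0.00655; difference 0.84, adjusted p = 0.0115).

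The CRISPR interference libraries were used by none of these classes. In SNU719 the sgMYB-E3 guide left MYB at 18.3 FPKM against 47.6 with sgCtrl, and in YCC10 at 12.3 against 21.1, with 1 library per group and no test. Without short RNA genes, 72.3 percent of shared lower genes were below their control with sgMYB-E3 in SNU719, with a median of -0.06, against 50.9 percent of all genes. Of shared higher genes 25 percent were below, with a median of 0.08. In YCC10 the shares were 45.5 and 40.1 percent, against 46.6 percent of all genes. For genes lower with siMYB only the shares below control were 56.7 percent in SNU719 and 47.5 percent in YCC10. For genes lower with siTCF7 only they were 56.9 and 44.0 percent.

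Letter patterns in promoters were counted by class, as a description of the windows only. Of the 12172 tested genes 9212 matched a RefSeq promoter. Both strands were searched for the CHR letters TTTGAA, the box CCAAT, the E2F site TTTCCCGC, the MYB site CAACNG and the TCF site CTTTGAT, which do not contain each other. TTTGAA occurs in 15.4 percent of 572 shared lower promoters, in 7.57 percent of 370 shared higher ones and in 9.81 percent of all; outside the G1/S and G2/M lists the share in shared lower promoters is 14.1 percent of 525. CCAAT occurs in 45.8, 28.4 and 37.8 percent, and TTTCCCGC in 4.55, 1.62 and 2.88 percent. CAACNG occurs in 36.5, 28.9 and 32.3 percent, and in 30.9 percent of 375 promoters of genes lower with siMYB only. CTTTGAT occurs in 1.57, 0.541 and 1.40 percent, and in 0 of 88 promoters of genes lower with siTCF7 only.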

How the data were processed

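RNA-seq libraries of 2 gastric cancer lines were compared: 8 of a MYB knockdown set and 4 of a TCF7 knockdown set, with the 4 libraries of a CRISPR interference set as a side readout. The authors deposited FPKM values per gene. Per the submitters' processing notes, bcl2fastq 2.20.0, HISAT2 2.1.0, Cufflinks 2.2.1 and build hg38 were used; for settings and annotation the sources used here give nothing. FPKM holds no counts, so depth is unknown and no counting interval can be given.

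Rows of 1 symbol were summed (33648 rows, 28167 symbols, 2097 on more than 1 row). Values were taken as log2(FPKM + 1), which understates the change of low genes, and genes whose mean over the 12 libraries was under 1 FPKM were left out. limma 3.58.1 (R 4.3.3) fitted an own control mean for each line and set, a siMYB effect in each line, averaged, and 1 siTCF7 effect shared by both lines, with 5 residual degrees of freedom. Calls have a Benjamini-Hochberg adjusted p under 0.05 over all genes tested. A fit with a siTCF7 effect in each line (4 residual degrees of freedom) was added after seeing the data. The method was tested on simulated data with independent noise per library and 1 siTCF7 effect shared by both lines. Those data held neither a joint deviation of same-numbered libraries nor a siTCF7 difference between lines, so the test does not cover these. Figures and counts were made with Python 3.11.15.

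Same-numbered libraries of the MYB set deviated together. Replicate differences of siCtrl and siMYB correlated at 0.342 in SNU719 and 0.440 in YCC10, and at 0.541 and 0.721 without short RNA genes. A fit with the replicate number as a block is therefore given where it changes a call. Named genes were, in each class, up to 8 that reached 5 FPKM, had the same sign in both lines and were no short RNA gene, ranked by the smaller of both changes (shared, opposite) or by the difference (1 siRNA only). Up to 6 genes per line past 1 log2 unit with both siRNAs and up to 4 genes per list were also taken, with all members of the MYB family and TCF/LEF lists. The members and the 28 gene lists were chosen with earlier results of these data known. Alternatives were the block, a pseudocount of 0.1, other filters, median-of-ratios and quantile scaling, leaving out short RNA genes, all 16 libraries, the MYB-set libraries of 1 number and leaving out each library. Promoters came from RefSeq, build GRCh38.p14.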

Additional observations from a re-analysis of the deposited data

Results flagged for a closer look

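The siMYB change differed between SNU719 and YCC10 in 13 of the named genes by limma's test of the line difference (adjusted p under 0.05 over all genes; 10.3 percent of all genes tested passed). Each value is the SNU719 change minus the YCC10 change on log2(FPKM + 1), from 2 libraries per group and line. Among shared higher genes it was 3.24 for IL33 (adjusted p = 0.00435), 3.24 for SPRR3 (0.0114), 1.96 for SPRR1B (0.0247) and 0.974 for TNFSF15 (0.00843), so these rose further in SNU719. IGFL1 (3.12, adjusted p = 0.00224) and IGFL2 (2.03, 0.0249), higher with siMYB only, also did. The difference that places IGFL2 in that class (adjusted p = 0.0287) was lost with the block (0.0636), without the filter (0.056) and without any 1 MYB-set library (0.0584 to 0.0709). For genes that fell with siMYB only, positive values mean a deeper fall in YCC10: LPXN 1.73 (adjusted p = 0.000957), RAB8A 1.32 (0.0027), TIMM17A 1.16 (0.0072) and EI24 0.781 (0.00678). The same holds for VILL (1.52, adjusted p = 0.0072) and GPAT3 (1.44, 0.0189), whose siMYB and siTCF7 changes have opposite signs. The siTCF7 call of VILL was lost without any 1 TCF7-set library (0.0596 to 0.0973), and that of GPAT3 with the block (0.0544), without the filter on low values (0.0595), without any of 5 MYB-set libraries (0.0507 to 0.0546) and without either TCF7-set library of YCC10 (0.259 and 0.26). HABP2 had a value of -2.29 (adjusted p = 0.0363). Reads of the related IGFL and SPRR genes may have been divided among copies, which was not tested.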

How the results depend on the processing

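None of the 241 calls of named genes changed sign under any alternative, and those lost numbered 62 with the replicate block, 53 without the filter on low values, 11 and 18 with median-of-ratios and quantile scaling, 55 to 67 without 1 MYB-set library, 57 without a YCC10 and 6 without a SNU719 library of the TCF7 set. All were lost with the MYB-set libraries of 1 number, a fit with 1 residual degree of freedom. The replicate block gave 1485 siTCF7 calls, 189 siTCF7-only genes and 4856 siMYB calls in SNU719 (2737 without it). No filter gave 1182 siTCF7 calls, 581 shared, 175 siTCF7-only and 89 opposite genes, and quantile normalization 418 siMYB-only genes. All 16 libraries gave 442 siTCF7-only and 226 opposite genes. A siTCF7 effect in each line gave 3899 siTCF7 calls, 2616 differences, 2146 shared, 729 siTCF7-only and 405 opposite genes. The MYB-set libraries numbered 2 gave 43 siMYB and 11 siTCF7 calls, 0 differences, 2 shared and 0 siMYB-only, siTCF7-only or opposite genes, with r = 0.162 in YCC10. Those numbered 1 gave 0 siMYB and 12 siTCF7 calls, 11 differences, 0 shared, 0 siMYB-only, 10 siTCF7-only and 0 opposite genes, with r = 0.0284 in SNU719. A pseudocount of 0.1 gave r = 0.0144 in SNU719 and 0.174 in YCC10 and 306 genes past 1 log2 unit with both siRNAs in YCC10, and a mean of at least 5 FPKM r = 0.0347 in SNU719. Without short RNA genes r was 0.484 and 0.449, and 36 SNU719 genes passed 1 log2 unit with both. The cause of these shifts was not tested. Leaving out 1 library in turn gave 3118 to 5496 siMYB calls, 498 to 3959 siTCF7 calls, 464 to 2892 differences, 312 to 2134 shared, 285 to 693 siMYB-only, 88 to 921 siTCF7-only and 56 to 443 opposite genes. It gave 1113 to 2323 siMYB calls in SNU719, 3414 to 4725 in YCC10, 71 to 83 and 171 to 194 genes past 1 log2 unit with both, and r of -0.00235 to 0.0868 in SNU719, reversed without the second siCtrl library of the MYB set, and 0.155 to 0.222 in YCC10.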
